A study of Mus musculus with 2 samples.

Results

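BMP4, its receptors, the SMAD proteins that carry its signal and the ID genes that answer it were examined in mouse embryonic stem cells (mESCs) that overexpress telomeric repeat-containing RNA (TERRA). The genes are Bmp4, Bmpr1a, Bmpr2, Smad1, Smad4, Smad5, Smad6, Id1, Id2 and Id3. They were taken by symbol from the deposited table, which holds 18888 genes, and all 10 were found. The cells are 46C mESCs, a line derived from the inner cell mass that carries a GFP reporter in the Sox1 gene. PB mESCs received the empty PiggyBac vector and PB-TERRA mESCs the same vector with TERRA that ends in a poly(A) tail. Both were grown feeder-free on gelatin in the usual mESC medium (LIF and serum in the study's methods) and are labelled as passages 21 to 24. Whether each culture is a pool or a clone, and which promoter drives TERRA, is not given in the sources used here.

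Each condition is represented by 1 library of total RNA without replicates. No p-value is therefore given, and every difference is between 2 libraries and not between conditions. Expression values are FPKM (fragments per kilobase of gene length, scaled to the mapped fragments of the library). Reads per gene were estimated from FPKM and gene length, at a depth of about 24390000 reads in PB and 24570000 in PB-TERRA. Intervals cover counting error at the 95% level only, and they are narrower than an interval between cultures would be. All 10 undifferentiated mESC markers that were checked had at least 1 FPKM, 5 of them higher and 5 lower in PB-TERRA (median log2 ratio 0.01). Among them were Pou5f1 at 744.67 FPKM in the PB library and 773.31 in the PB-TERRA library, Sox2 at 133.91 and 144.88, and Nanog at 186.41 and 173.37. TERRA itself is not analysed here.

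In the BMP pathway a secreted ligand brings together type I and type II receptor kinases. The type II receptor activates the type I receptor, which phosphorylates SMAD1 and SMAD5. These bind the common partner SMAD4 and enter the nucleus, where the ID genes are among their best known targets. ID proteins are helix-loop-helix proteins without a DNA-binding region, and they hold E proteins away from DNA. In mESCs, BMP4 or serum is known to act together with LIF to sustain self-renewal through ID proteins. Of the 10 genes, Id1, Id2, Id3, Smad1 and Smad5 are among the markers that the study itself displays from these libraries, so their direction is not independent evidence.

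No member differed strongly between PB and PB-TERRA mESCs. The log2 ratio of PB-TERRA to PB, taken on FPKM + 0.1, ran from -0.11 for Smad6 to 0.22 for Bmp4, with a median of -0.0049. The 5 members Bmp4, Bmpr2, Id1, Bmpr1a and Smad1 were higher in PB-TERRA and the remaining 5 were lower. An absolute log2 ratio of at least 1 was reached by 0 of the 10, against 0.913% of the 12263 genes that had at least 1 FPKM in 1 library or both. A lower threshold of 0.5 was also reached by 0 members, against 4.67% of these genes. The counting interval lay above 0 for 4 members, the ligand, both receptors and Id1, against 18.1% of the 12263 genes. It lay below 0 for 0 members, against 17.4% of these genes, and it included 0 for 6 members. Among all of the filtered genes, 5962 were higher and 6244 lower, with a median log2 ratio of -0.0044.

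**Figure D1:**
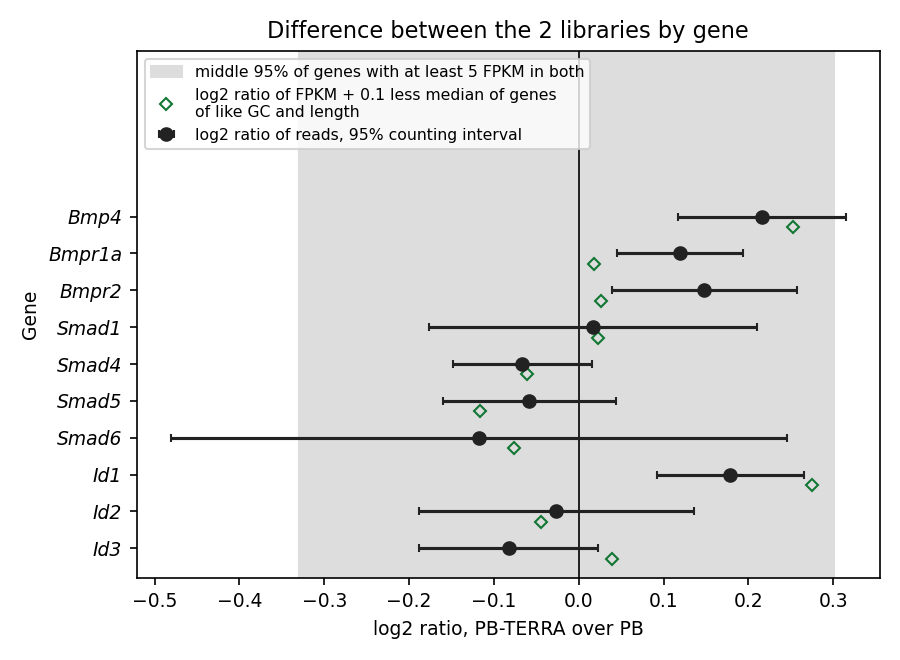
Log2 ratio of the estimated reads (PB-TERRA over PB, 1 library each) for the 10 genes, with bars for the 95% counting interval and diamonds for the log2 ratio of FPKM + 0.1 after the median of genes of like GC content and length was taken off. The bars of Bmp4, Bmpr1a, Bmpr2 and Id1 lie right of 0, and all 10 points lie within the grey band, the middle 95% of the 8496 genes at or above 5 FPKM in each library (-0.33 to 0.30). The band is that of log2 ratios of FPKM + 0.1, and Smad6 and Bmpr2 are themselves under 5 FPKM in at least 1 library.

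Bmp4, the ligand of the pathway, had the largest difference among the members on the values as deposited, with 32.68 FPKM in the PB library and 37.96 in the PB-TERRA library, a level 16.2% higher. These values stand for about 1549 and 1812 reads. The log2 ratio of the reads was 0.22 (95% interval 0.12 to 0.31). A log2 ratio at least as large was found for 10.2% of the genes past the filter and for 5.96% of those with at least 5 FPKM in both libraries. Genes of like GC content and length had a median log2 ratio of -0.04, and Bmp4 stood 0.25 above that median. With that median taken off, the difference of Id1 (0.28) was the larger of the pair.

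Of 17 BMP and GDF ligand genes that were listed, 14 are in the table and 5 had at least 1 FPKM. All of these 5 were higher in PB-TERRA, with a median log2 ratio of 0.16. An interval above 0 was found for 2 of the 5, against 18.1% of all filtered genes, and 3 intervals included 0. Gdf3, a TGF-beta family ligand typical of undifferentiated mESCs, was the most abundant ligand, with 59.61 FPKM in the PB library and 63.93 in the PB-TERRA library (interval of the log2 ratio 0.03 to 0.17). Bmp8a had 1.13 and 1.56 FPKM and Bmp8b 4.30 and 4.82, and the intervals of both included 0 (-0.02 to 0.96 and -0.06 to 0.39). Per gene length, Bmp4 came next after Gdf3 among the ligand transcripts of each library.

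The receptor Bmpr1a, the type I kinase that phosphorylates SMAD1 and SMAD5, had 20.89 FPKM in the PB library and 22.69 in the PB-TERRA library, a level 8.62% higher (log2 ratio of the reads 0.12, 95% interval 0.04 to 0.19). Bmpr2, the type II kinase, had 4.81 and 5.33 FPKM, a level 10.8% higher (0.15, 95% interval 0.04 to 0.26). The pair kept its proportion, since Bmpr1a was 4.34 times as abundant as Bmpr2 in PB and 4.26 times in PB-TERRA (log2 change of this ratio -0.03, 95% interval -0.16 to 0.10). Bmpr2 is the longest of the 10 genes, with a deposited length of 11094 bases, and Bmpr1a has 5567. Long genes of low GC content were higher in PB-TERRA as a class. Genes of like GC content and length had a median log2 ratio of 0.10 around Bmpr1a and 0.12 around Bmpr2, and with that median taken off the receptors stood at 0.02 and 0.03. The difference of the receptors was thus about the median of genes built like them.

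**Figure D2:**
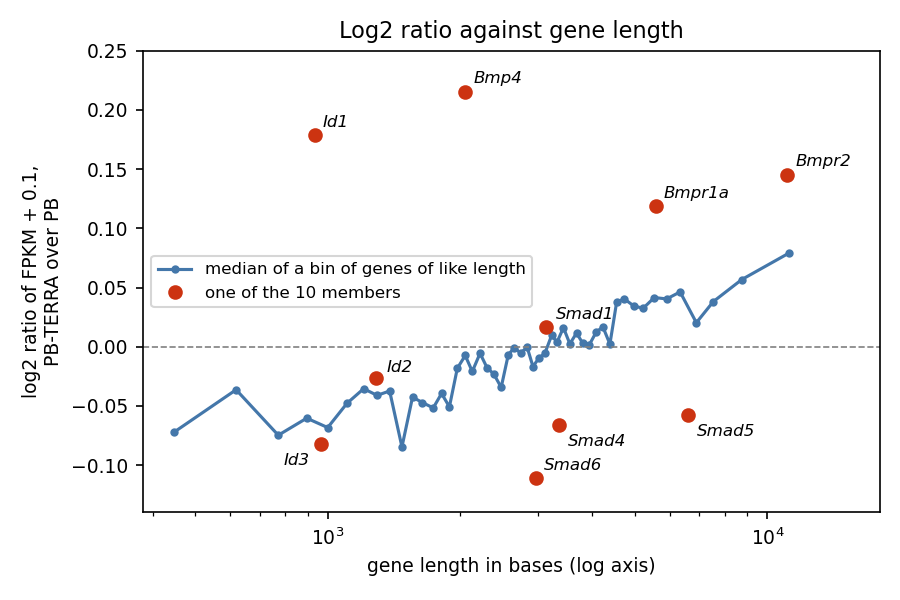
Log2 ratio of FPKM + 0.1 (PB-TERRA over PB, 1 library each) against gene length on a log axis, for the 10 genes (red) and for the medians of 50 bins of genes of like length (blue). The median of all genes past the filter was -0.06 in the shortest length decile and 0.05 in the longest, and Id1 and Bmp4 stand farthest above the blue line.

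Of 7 listed receptor genes 6 had at least 1 FPKM, 4 of them higher, Bmpr1a and Bmpr2 included, and 2 lower, with a median log2 ratio of 0.12. Only the intervals of Bmpr1a and Bmpr2 lay above 0, and that of Acvr1 lay below, 2 and 1 of 6 against 18.1% and 17.4% of all filtered genes. With the median of genes of like GC content and length taken off, the median of the receptor list was 0.02. Acvr1, another type I receptor of BMP ligands, had 3.16 FPKM in the PB library and 2.57 in the PB-TERRA library, with an interval that ended close to 0 (-0.59 to -0.0045). Acvrl1, an endothelial type I receptor, was near the filter with 1.05 and 1.16 FPKM (interval -0.28 to 0.57). Acvr2b, a type II receptor shared with activin, had 12.17 and 11.71 FPKM and was the most abundant type II receptor, above Bmpr2 in each library. Among 5 co-receptor genes past the filter, 3 were higher and 2 lower. Rgma, 1 of the 3, passed the filter only through PB-TERRA, where it was higher. Rgmb, a membrane co-receptor of BMP ligands, had 4.69 and 3.80 FPKM (interval -0.56 to -0.05), and Eng (endoglin) had 13.28 and 14.87 FPKM (interval 0.04 to 0.28). Of the same family as Rgmb, Hfe2 had 1.42 and 1.77 FPKM and Rgma 0.89 and 1.04. Their intervals and that of their receptor gene Neo1 (11.19 and 10.77 FPKM) included 0.

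Of the genes for extracellular proteins that bind BMP ligands or release them, 8 passed the filter, 6 higher and 2 lower (median log2 ratio 0.11). The interval lay above 0 for 3 of the 8 and below 0 for 0, against 18.1% and 17.4% of all filtered genes. Bmp1 is not a ligand but a protease that cleaves the antagonist chordin and procollagens. It had 5.88 FPKM in the PB library and 8.05 in the PB-TERRA library, with an interval of the log2 ratio of 0.30 to 0.61. Fstl1 (22.14 and 25.31 FPKM) and Twsg1 (16.15 and 17.80), both secreted BMP-binding proteins, had intervals above 0, from 0.10 to 0.28 and from 0.04 to 0.24. Chrd, which encodes chordin, had 1.58 and 1.36 FPKM and Fstl3 1.51 and 1.98, and both intervals included 0.

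The transcripts of the SMADs that carry the signal had no difference beyond counting error. Smad4, the common partner, had 31.13 FPKM in the PB library and 29.73 in the PB-TERRA library (log2 ratio of the reads -0.07, 95% interval -0.15 to 0.02). Smad5 had 10.05 and 9.65 FPKM (-0.06, 95% interval -0.16 to 0.04). Smad1 had 5.95 and 6.02 FPKM (0.02, 95% interval -0.18 to 0.21). As far as counting goes, these intervals place the difference of each of the 3 genes between -0.18 and 0.21 on the log2 scale. Smad9, the remaining receptor-regulated SMAD of the BMP branch, did not pass the filter, at 0.11 and 0.09 FPKM. Smad5 was thus the most abundant of the BMP receptor-regulated SMAD transcripts. The ratio of Smad1 to Smad5 was 0.592 in PB and 0.624 in PB-TERRA, with a log2 change of 0.07 (95% interval -0.14 to 0.29). Smad2 and Smad3, which serve activin and nodal instead and share SMAD4, had 10.57 and 11.44 FPKM (interval 0.03 to 0.20) and 3.93 and 4.01 FPKM (interval -0.16 to 0.21).

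Smad6, an inhibitory SMAD that BMP signalling itself induces, was the lowest of the 10 genes, with 1.92 FPKM in the PB library and 1.77 in the PB-TERRA library. Its reads, about 134 and 124, gave a log2 ratio of -0.12 with a wide interval (-0.48 to 0.25). Smad7, the inhibitory SMAD of both branches, had 18.29 and 19.96 FPKM (interval 0.04 to 0.22). Over the 13 listed intracellular inhibitors, each of which passed the filter, 9 were higher and 4 lower (median log2 ratio 0.04). The interval lay above 0 for 4 of the 13 and below 0 for 1, against 18.1% and 17.4% of all filtered genes. Fkbp1a, which keeps type I receptors inactive without ligand, was the most abundant of them, with 237.06 FPKM in the PB library and 216.82 in the PB-TERRA library (interval -0.17 to -0.09). Tob1, a negative regulator of receptor-regulated SMADs, had 18.65 and 20.53 FPKM (interval 0.01 to 0.26). Bambi, a receptor decoy without a kinase, had 1.60 and 1.36 FPKM (interval -0.54 to 0.07), and the phosphatase gene Ppm1a had 40.86 and 41.87 FPKM (interval -0.04 to 0.11).

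**Figure D3:**
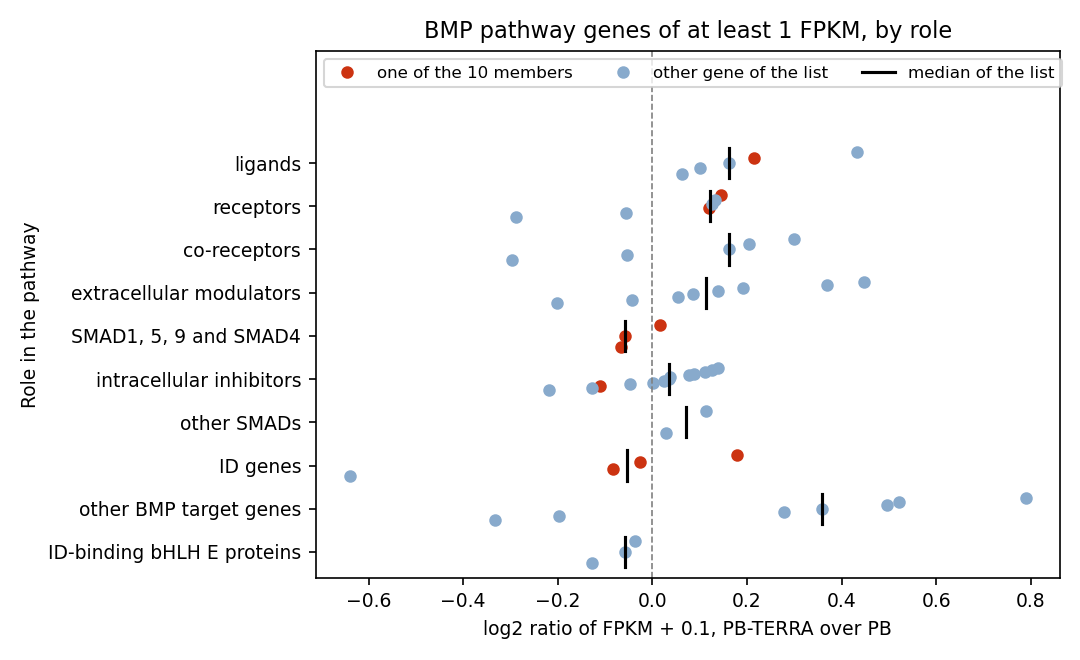
Log2 ratio of FPKM + 0.1 (PB-TERRA over PB, 1 library each) of the 56 listed BMP pathway genes with at least 1 FPKM in 1 library or both, by role, with the 10 genes in red and a black bar at each list's median. The ligands all lie above 0, the SMADs that carry the signal lie close to 0, and the ID genes lie on both sides, with Id4 farthest below.

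The ID genes and Smad6 are read out by SMAD complexes on DNA, so the starts of the target genes and of Bmp4 are shown here as RefSeq sequence of the build GRCm38.p6. The study's processing notes name mm9, so these coordinates are not those of the deposited table. Windows of 250 bases before and 50 after an annotated start were found for 8 of the 10 genes, not for Id1 and Smad4. They were searched on both strands for GGCGCC, a GC-rich element that SMAD1 and SMAD5 complexes bind, for GTCT, the short SMAD box that reads AGAC on the other strand, and for GTCTAGAC, which joins a pair of SMAD boxes as a palindrome and so overlaps GTCT. Of 32851 windows of 300 bases in the table, 11.9% hold GGCGCC, 87.98% hold GTCT and 0.213% hold GTCTAGAC. Below, capitals mark these matches. The stretches are Id2 on chr12:25096093-25096342 (minus strand), Id3 on chr4:136143572-136143821 (plus strand), Smad6 on chr9:64022056-64022309 (minus strand) and Bmp4 on chr14:46390670-46390919 (minus strand).
Id2: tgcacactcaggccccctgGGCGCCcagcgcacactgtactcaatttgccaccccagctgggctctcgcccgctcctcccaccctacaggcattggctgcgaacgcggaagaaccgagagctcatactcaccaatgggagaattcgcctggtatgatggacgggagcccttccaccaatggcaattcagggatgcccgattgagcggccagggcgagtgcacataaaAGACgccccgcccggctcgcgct
Id3: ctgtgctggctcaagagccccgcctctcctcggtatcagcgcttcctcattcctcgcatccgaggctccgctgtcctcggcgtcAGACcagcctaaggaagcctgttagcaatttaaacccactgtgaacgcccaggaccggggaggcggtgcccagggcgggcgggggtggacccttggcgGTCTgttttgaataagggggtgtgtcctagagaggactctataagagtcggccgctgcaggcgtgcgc
Smad6: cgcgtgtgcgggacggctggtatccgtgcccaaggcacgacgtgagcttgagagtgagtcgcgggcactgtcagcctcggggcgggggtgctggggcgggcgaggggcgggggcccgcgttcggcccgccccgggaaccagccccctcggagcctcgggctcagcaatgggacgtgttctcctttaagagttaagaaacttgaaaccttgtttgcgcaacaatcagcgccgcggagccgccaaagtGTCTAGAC
Bmp4: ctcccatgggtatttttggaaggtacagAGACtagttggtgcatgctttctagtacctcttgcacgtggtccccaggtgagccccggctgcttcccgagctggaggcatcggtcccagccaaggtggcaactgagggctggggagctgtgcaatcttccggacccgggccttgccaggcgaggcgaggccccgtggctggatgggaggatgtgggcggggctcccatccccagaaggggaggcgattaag
Positions are those of a match's leftmost base, counted from the start, with -1 as the base before it. The Id2 stretch holds GGCGCC at -231 and a SMAD box at -23. The Id3 stretch holds SMAD boxes at -166 and -68, and that of Bmp4 has 1 at -222, and neither holds GGCGCC. The Smad6 stretch ends in GTCTAGAC at -4, across the start used by the table, although the annotated gene reaches further upstream. This palindrome is in 70 of the 32851 windows. Of the 8 genes, 4 have GGCGCC in a window, namely Bmpr1a, Bmpr2, Smad5 and Id2, and 6 have GTCT, which most windows hold. A match is a run of letters and not a measured binding site.

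Among the ID genes, only Id1 differed beyond counting error in these libraries. Id1, the most abundant of the 10 genes, had 100.29 FPKM in the PB library and 113.51 in the PB-TERRA library, a level 13.2% higher, from about 2013 and 2295 reads. The log2 ratio of the reads was 0.18 (95% interval 0.09 to 0.27). A log2 ratio at least as large was found for 13.6% of the genes past the filter and for 8.83% of those with at least 5 FPKM in both libraries. Id1 is the shortest member, at 934 bases, and short genes tended to be lower in PB-TERRA. With the median of genes of like GC content and length, -0.10, taken off, Id1 stood at 0.28.

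Id3 had 72.00 FPKM in the PB library and 67.99 in the PB-TERRA library (log2 ratio of the reads -0.08, 95% interval -0.19 to 0.02). Id2 had 21.95 and 21.55 FPKM (-0.03, 95% interval -0.19 to 0.14). Id3 has a length of 964 bases, close to that of Id1, and genes of like GC content and length had a median of -0.12 around it, so that Id3 moved to 0.04 with that median taken off. Id4, the remaining family member, had 1.10 and 0.67 FPKM from about 42 and 25 reads, and its interval included 0 (-1.49 to 0.03). Per gene length, the 4 ID genes summed to 195.34 FPKM in the PB library and 203.72 in the PB-TERRA library.

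The proportion of the ID transcripts differed between the libraries. Id1 was 1.39 times as abundant as Id3 in PB and 1.67 times in PB-TERRA, a log2 change of 0.26 (95% interval 0.12 to 0.40). It was 4.57 and 5.27 times as abundant as Id2, a log2 change of 0.21 (95% interval 0.02 to 0.39). The ratio of Id2 to Id3 was 0.305 and 0.317, with an interval of the log2 change that included 0 (-0.14 to 0.25). These ratios are taken within a library and do not depend on how the libraries were scaled. The ratio of Bmp4 to Id1, the ligand and the highest target, was 0.326 in PB and 0.334 in PB-TERRA (log2 change 0.04, 95% interval -0.09 to 0.17).

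**Figure D4:**
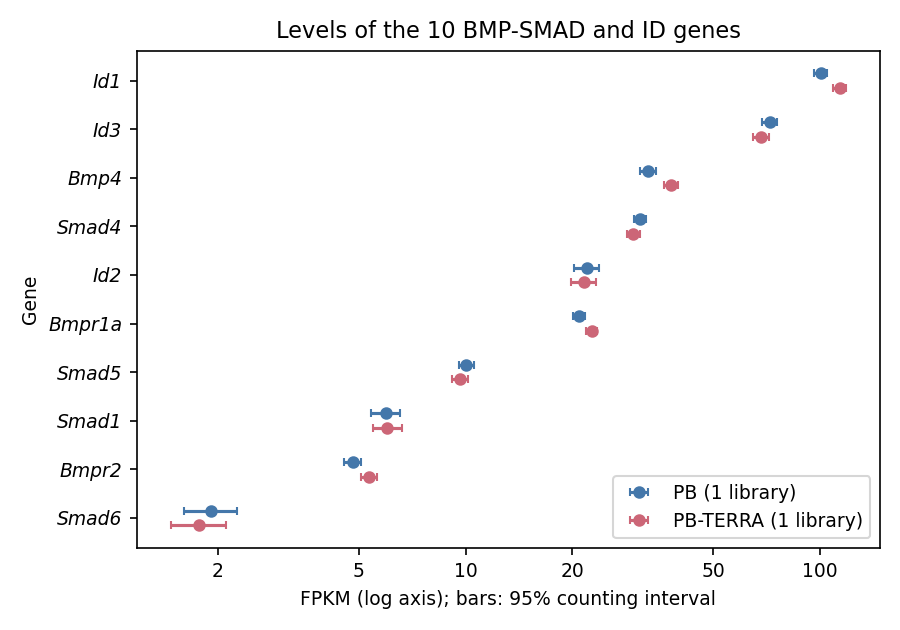
FPKM (log axis) of the 10 genes in the PB library (blue) and the PB-TERRA library (red), with bars for the 95% counting interval of each value. Id1 and Id3 are highest and Smad6 is lowest in both, and the bars of the 2 libraries stand apart for Id1, Bmp4 and Bmpr1a.

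The order of the levels was nearly the same in both libraries. In PB it ran from Id1 through Id3, Bmp4, Smad4, Id2, Bmpr1a, Smad5, Smad1 and Bmpr2 to Smad6. In PB-TERRA, Bmpr1a and Id2 changed places. The counting intervals of these neighbours overlapped in each library, so their order was not settled at this depth. The interval of Bmp4 overlapped that of Smad4 in PB (31.1 to 34.3 FPKM against 29.9 to 32.4) but not in PB-TERRA. Those of Smad1 and Bmpr2 overlapped in PB-TERRA but not in PB.

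The E protein genes, whose products ID proteins hold away from DNA, had log2 ratios below 0 in all 3 cases, and 1 interval lay below 0, against 17.4% of all filtered genes. Tcf3 (E2A) had 42.39 FPKM in the PB library and 38.77 in the PB-TERRA library (interval -0.19 to -0.06). Tcf4 had 4.97 and 4.77 FPKM and Tcf12 14.26 and 13.89, and both intervals included 0. Their summed FPKM was 61.62 in PB and 57.43 in PB-TERRA.

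Other genes known to respond to BMP had the highest list median of the pathway, 0.36 on the log2 scale. Of 14 listed, 7 had at least 1 FPKM, 5 of them higher and 2 lower. Of the 7 intervals 4 lay above 0 and 1 below, against 18.1% and 17.4% of all filtered genes. The gene at the median of the list had an interval that included 0 (-0.13 to 0.91). Dusp9, a phosphatase gene through which BMP4 is known to restrain ERK in mESCs, had 48.82 FPKM in the PB library and 70.07 in the PB-TERRA library (interval 0.45 to 0.59). Cdx2 had 1.19 and 2.13 FPKM (interval 0.37 to 1.32) and Gata2 2.41 and 3.44 (interval 0.24 to 0.79), and both encode transcription factors of the trophoblast and other lineages. Hes1, which Notch also controls, had 10.08 and 12.24 FPKM (interval 0.07 to 0.49). The interval below 0 was that of Prdm1, a transcription factor gene of germ cell specification, with 1.75 and 1.37 FPKM (-0.65 to -0.06). The other lower gene, Hey1, had a log2 ratio of -0.20, and its interval included 0 (-0.66 to 0.24). Without the 10 members, 46 genes of the pathway lists passed the filter, 31 higher and 15 lower, with a median log2 ratio of 0.08. Of these 46, 14 had an interval above 0 and 5 below 0, against 18.1% and 17.4% of all filtered genes. An absolute log2 ratio of 1 was reached by 0 of them, against 0.913%.

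The table also annotates genes with GO terms. The GO term for the BMP signaling pathway is carried by 57 genes, of which 46 passed the filter, 29 higher and 17 lower, with a median log2 ratio of 0.12. Of the 10 members only Bmpr1a, Bmpr2, Smad4 and Smad6 carry it. Bmp4 has 0 biological process terms of any kind in the table, so its lack of this term is a blank entry. The lists used here hold many of these genes. Without them, 27 genes with the term remained, 14 higher and 13 lower, with a median of 0.02, and 11 intervals lay above 0 and 8 below, against 18.1% and 17.4% of all filtered genes. The term osteoblast differentiation is carried by 7 of the 10 members. Its share over all genes was not computed, so this count is a description of the annotation only.

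Markers of other cell types that mESC cultures can hold were measured in the same libraries. All 8 primitive endoderm markers that passed the filter were higher in PB-TERRA (median log2 ratio 0.36), and all 10 together had 119.37 FPKM in the PB library and 131.37 in the PB-TERRA library, most of it Sparc. Of the 8, Pdgfra (0.51 and 1 FPKM) passed the filter only through PB-TERRA, where it was higher. The interval lay above 0 for 6 of these 8, Pdgfra among them, against 18.1% of all filtered genes. Sparc, which makes up most of the sum, had a log2 ratio of 0.05, under the median of the list. Of 7 trophectoderm markers past the filter, which include Cdx2, 4 were higher and 3 lower (median 0.05), and 2 intervals lay above 0 and 2 below. Of 4 fibroblast markers 3 were higher and 1 lower (median 0.34), with 2 intervals above 0 and 0 below. Col1a2 (0.92 and 1.37 FPKM, interval above 0) and Pdgfrb (0.94 and 1.05) passed the filter only through PB-TERRA, where they were higher. The count and median of this list lean on them. Of 4 mesoderm markers 2 were higher and 2 lower (median 0.16), with 2 intervals above 0 and 1 below, and of 5 neural markers 3 were higher and 2 lower (median 0.16), with 2 above and 2 below. Hand1 (interval above 0) and Eomes (interval below 0) are counted in both the trophectoderm and the mesoderm list. The mesoderm marker Kdr (0.79 and 1.11 FPKM, interval above 0) passed the filter only through PB-TERRA, where it was higher. Over all markers in the table, the summed FPKM in PB and PB-TERRA was 294.19 and 296.43 for trophectoderm, led by Krt8, and 20.28 and 24.29 for fibroblasts, led by Col1a1. It was 19.06 and 18.62 for mesoderm, led by T, and 92.67 and 82.62 for neural markers, led by Tubb3. In each of these lists 0 of the markers in the table were at the floor of 0.01 FPKM in both libraries. Their part in the differences of Bmp4, Id1 and the other BMP targets was not tested. In RNA from whole cultures, more cells of a type and more RNA per cell cannot be told apart.

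Reads shared with other genes touch the members little. Of the 50-base stretches in the annotated transcripts of each member, 3.77% in Bmpr1a also occur in another gene's transcripts, on the opposite strand in the overlapping gene Gm17110. The share was 2.18% in Bmp4, mostly Gm15217 on the opposite strand, and under 1% in the other 8 members, at 0.68% in Smad5. How the authors' counting treated strand is not given in the sources used here.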

How the data were processed

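The authors sequenced total RNA of 46C mESCs with PB or PB-TERRA on a BGISEQ-500, with 1 library for each. The submitters' processing notes name HISAT, Cufflinks and mm9, with no versions. The authors deposited 1 table with a gene length and an expression value per library, read here as FPKM, rounded to 2 decimals with a floor of 0.01. The header names no unit. The table also holds the authors' log2 fold changes, p-values, adjusted p-values and calls, and none of these columns was used.

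Differences are log2 ratios of FPKM + 0.1, which understate the change of low genes, for genes that reached 1 FPKM in either library. With 1 library per condition there is no test. The members and gene lists were chosen with earlier results of these data known. Low FPKM values of short genes step by whole reads. A fit of these steps (418 values in PB-TERRA, 378 in PB, steps over 0.06 FPKM and under 6 reads) gave 24390000 reads in PB, 24570000 in PB-TERRA and 111 bases to take off each length. At that fit 73.3% and 80.1% of the values lay within 0.01 FPKM of a whole read, against 22.2% for evenly spread values in each library. Reads are therefore estimates. Intervals are exact, Clopper-Pearson for differences, Poisson for levels and conditional for ratios of a pair of genes, and cover counting error only. The fit and the intervals were tested on simulated data.

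Alternatives tried were pseudocounts of 0.01 and 1, no filter or a mean of 5 FPKM, a median or size-factor scaling, and the median of genes of like length (50 bins) or of like GC content and length (10 by 10 bins) taken off. GC content came from GENCODE M21 transcripts (GRCm38), for 94.3% of the genes past the filter. Genes named from the lists are, beside the members, up to 3 with the largest absolute log2 ratios and up to 2 with the highest FPKM per BMP role list. Of the mESC markers Pou5f1, Sox2 and Nanog are named, and of other cell types the most abundant marker. The markers Hand1, Eomes, Kdr, Pdgfra, Col1a2 and Pdgfrb were named after their values were seen. Smad7, Smad9, Smad3, Smad2, Tcf4, Tcf12 and Id4 complete small families, and Smad7, Smad9, Prdm1 and Hey1 were named after their values were seen. Values were computed with scipy 1.17.1, pandas 2.3.3 and numpy 2.4.6 under Python 3.11.15 and plotted with matplotlib 3.10.9.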

Additional observations from a re-analysis of the deposited data

How the results depend on the processing

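Of the members' log2 ratios under the 8 alternatives of pseudocount, filter, scaling, length and GC content, 75 of 79 stayed within the counting interval of the reported value. The other 4 arose with the median of genes of like GC content and length taken off, at 0.02 for Bmpr1a, 0.03 for Bmpr2, 0.28 for Id1 and 0.04 for Id3, whose sign changed. Most of the 75 were fixed in advance. The filters leave a member's ratio as it is, and the scalings take about -0.0044 or -0.0046 off every log2 ratio. None of these settings could take a member out of its interval. Id2 changed sign with length alone (0.01). Smad6 did not pass a mean of 5 FPKM. The number of members with an absolute log2 ratio of at least 1 stayed at 0 under each of these alternatives. The number of pathway genes past it moved from 0 to 1 with no filter, and the gene, Tbx20, named after its value was seen, had 0.27 and 0.67 FPKM. The median of the 10 members took the opposite sign with a mean of 5 FPKM (0.02), with length (0.02) and with GC content and length (0.02). Of the 80 medians of role lists 2 changed sign, the ID genes with length (0.0002) and the intracellular inhibitors with GC content and length (-0.03). The intervals of 4 members lay on 1 side of 0 also at the 99% level. With no bases taken off the length the number was 4 too. That setting raises the reads of both libraries alike and narrows the intervals, so none of the 4 could be lost. The intervals were not recomputed with the median of genes of like GC content and length taken off, where Bmpr1a and Bmpr2 stood at 0.02 and 0.03. No paired analysis was possible because each condition has 1 library. Among the members, depth limits Smad6 most, and the spread between cultures, which the intervals leave out, is not known.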
